A study of Mus musculus with 10 samples.

Results

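Genes of the tricarboxylic acid (TCA) cycle, of the reactions that feed it and refill it, and of the mitochondrial shuttles were followed in pancreatic islets of 9-week-old mice. The set was defined by gene name. Of its 38 genes, 37 had a probe on the array and 37 were tested, out of 19557 genes tested in all. No probe was found for Suclg2, the GTP-forming subunit of succinyl-CoA ligase, which was not analysed here. The islets came from 5 mice homozygous for the db allele of the leptin receptor (db/db) and from 5 heterozygous db/+ controls, all 9 weeks old and on the C57BLKS/J background. According to the labels, db/db mice of this age are severely hyperglycaemic, with insulin levels that have declined since 6 weeks, a stage called decompensation. Each mouse's islet RNA was hybridised in Cy5 to an array of its own beside a Cy3 reference, labelled as db/+ islet RNA of the same age. Whether that reference was pooled, and from which mice, is not given in the sources used here. If the reference on each db/+ array held RNA of that array's own sample, the db/+ ratios would vary too little. SEs and p-values would then be too small. A reference shared by all arrays would not have this effect.

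In the TCA cycle acetyl-CoA condenses with oxaloacetate to citrate, which is oxidised stepwise back to oxaloacetate while NADH and FADH2 are passed to the respiratory chain. Intermediates that leave the cycle are replaced by anaplerosis, mainly through carboxylation of pyruvate. Beta cells send a large share of their pyruvate into carboxylation. Citrate, malate and reducing equivalents are exchanged with the cytosol through carriers and shuttles, and these fluxes, together with the ATP made, are coupled to insulin secretion.

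In db/db islets most of the enzymes of the cycle that changed were lower, pyruvate carboxylase and the mitochondrial glycerol phosphate dehydrogenase fell more than any other tested gene of the set, and 3 genes rose. Of the 37 genes, 15 were lower and 3 higher in db/db at a limma adjusted p under 0.05, and 19 were not called. Across all genes tested, 18.1% were lower and 17.1% higher by the same criterion, against 40.5% and 8.11% of the set. Genes with a bright probe were called more often, so the same counts were made above the median intensity. There 17 of 35 genes of the set were lower and 3 were higher, against 28.6% lower and 24% higher among all genes that bright. The median log2 difference, db/db minus db/+, was -0.24 over the set and -0.02 over all genes. Of the 18 called genes, 6 changed by at least 1.5-fold and 12 by less, so most of these shifts were modest. In whole islets, fewer cells of a type and less RNA per cell cannot be told apart.

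**Figure D1:**
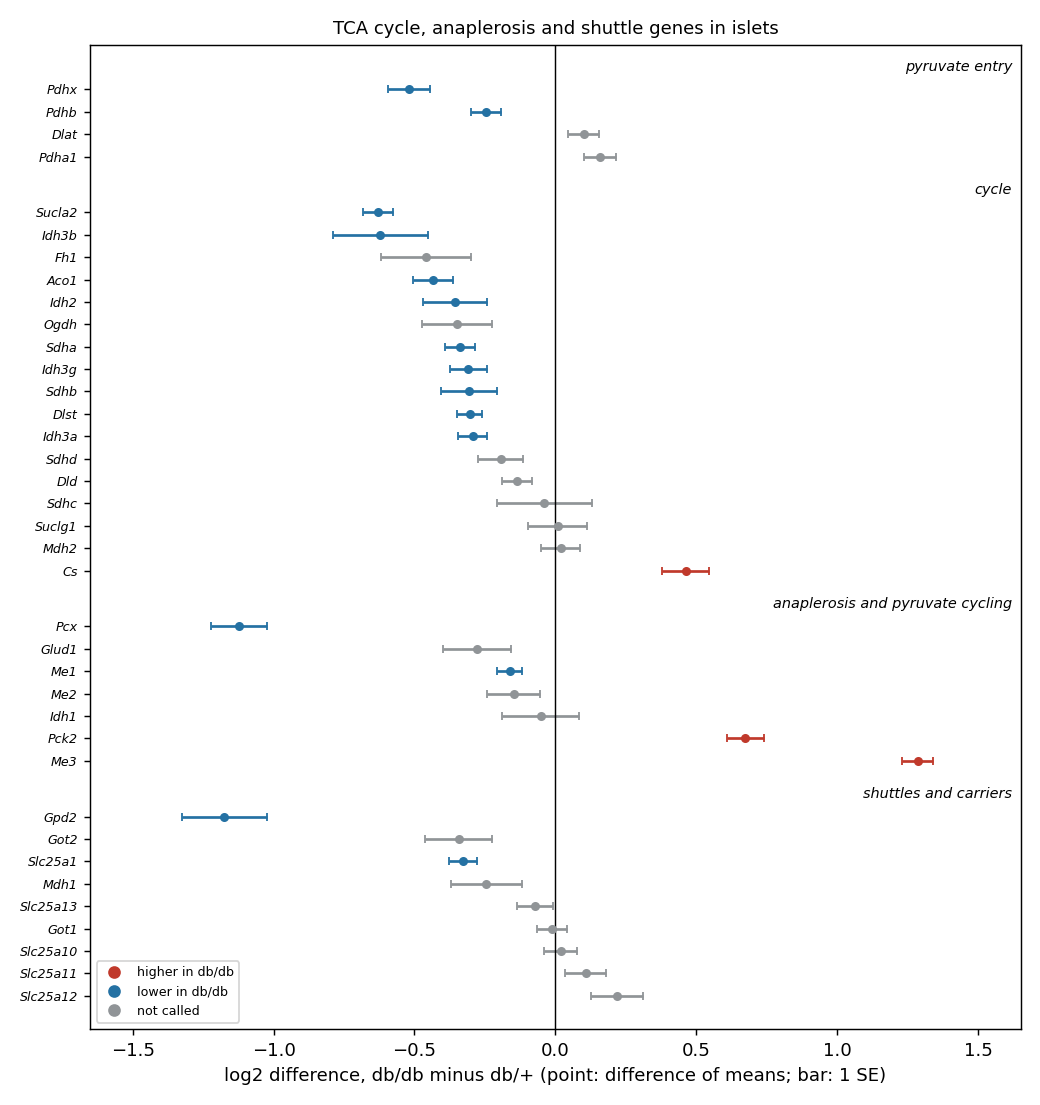
Log2 difference between db/db and db/+ islets for the 37 tested genes, grouped by step, with points for the difference of the group means (5 arrays each, but 3 each for Sdhc) and bars for 1 standard error. Gpd2 and Pcx lie farthest to the left, Me3 and Pck2 farthest to the right, and most genes of the cycle lie left of 0.

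Ratios are log2 ratios of the islet sample over the reference, where 0 means a level equal to the reference. Log2 differences between the groups are db/db minus db/+, where 0 means equal group means. The spread of all ratios within an array, as a standard deviation, averaged 0.506 ± 0.0257 in db/db and 0.231 ± 0.0472 in db/+ (SD, n = 5 each), and on the db/+ arrays sample and reference share a genotype. Between 22657 and 23365 of the 23512 probes had a value on an array. Precision is limited by having 5 arrays a group. The Cy3 signal of the reference was compared between the arrays of both groups as a control, and 0.0216% of probes passed. None of the 37 genes was among them (lowest limma adjusted p = 0.871, with 1 gene, Slc25a13, at an unadjusted p under 0.05). Bright beta cell transcripts were present in the reference, with the glucose transporter gene Slc2a2 at 18.6 intensity units and the zinc transporter gene Slc30a8 at 18.5. The insulin gene Ins1 was listed at only 0.044 units, near the lower limit, on a probe whose position is not given.

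Some markers of islet and other cells differed between the groups as well. Their counts stand beside 18.1% lower and 17.1% higher among all genes tested, and no list was tested as a set. All 5 tested stellate and fibroblast markers were higher in db/db, with a summed Cy5 signal of 2.52 to 4.8 units in db/db and 0.76 to 1.45 units in db/+. Of 5 tested acinar markers 1 was lower, and their sum was 10.1 to 22.28 units in db/db and 21.98 to 32.01 units in db/+. Of 8 tested beta cell markers 4 were lower, with sums of 9.77 to 10.9 units in db/db and 16.02 to 18.78 units in db/+. Kcnj11 weighs most in these sums, at 14 Cy3 units against 2.15 for the next brightest, Nkx6-1. Iapp, Slc2a2 and Slc30a8 had no db/+ value and were not tested. Their mean db/db ratios were 0.29, -2.08 and -0.90. Of 6 duct markers 2, Spp1 and Muc1, were higher, with sums of 24.03 to 29.73 units in db/db and 16.19 to 22.68 units in db/+. Spp1 weighs most in these sums, at 11.1 Cy3 units against 2.78 for the next brightest, Sox9. Krt19, Krt7, Sox9 and Cftr were not called. Of 4 tested alpha cell markers 2 were higher, with sums of 2.79 to 3.27 units in db/db and 1.93 to 2.48 units in db/+. The red cell genes Hba-a1 and Hbb-b1 were higher (log2 differences 1.41 and 1.29), while Alas2 of the same list was not called (-0.02). In the list of delta and PP cells, Sst (-0.86, on 3 db/+ values) and Rbp4 (-1.11) were lower and Hhex was higher (0.51). Of 8 macrophage and leukocyte markers 2, Lyz2 (0.45) and Csf1r (0.39), were higher. Their list's sums overlapped, at 21.86 to 29.01 units in db/db and 20 to 32.49 units in db/+. Of 5 endothelial markers, Flt1 was lower (-0.81), Plvap was higher (0.94) and the others were not called. None of 3 adipocyte markers was called. No marker of these lists was at 0 on all arrays. When the mean of the acinar markers entered the fit as a covariate, 12 of the 18 called genes kept their call. Among the other 6, the log2 difference with the covariate was 0.42 for Cs, -0.36 for Idh2, -0.69 for Idh3b and -0.29 for Sdhb, about as large as without it, while Idh3g gave -0.19 and Me1 -0.09. Quantile normalization of the ratios left 9 of them, and the calls of Pdhb, Aco1, Idh2, Idh3a, Idh3b, Idh3g, Dlst, Sdhb and Me1 were lost. The part of the other markers in the results was not tested.

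Pyruvate enters the cycle through the pyruvate dehydrogenase (PDH) complex, and its subunits did not move together. Pdhx, which tethers the dihydrolipoamide dehydrogenase to the core, had log2 ratios of -0.24, -0.60, -0.41, -0.36 and -0.61 in db/db and 0.20, 0.08, 0.05, 0.05 and 0.00 in db/+. Every db/db array lay below every db/+ array, a fall of 1.43-fold (log2 difference -0.52 ± 0.08 SE, limma adjusted p = 0.000582). Pdhb, the beta subunit of the decarboxylase, read -0.20, -0.35, -0.26, -0.12 and -0.13 in db/db and -0.04, 0.00, 0.00, 0.13 and 0.08 in db/+. The groups were again apart, by a smaller margin (-0.25 ± 0.05 SE, limma adjusted p = 0.00619). The alpha subunit gene Pdha1, in contrast, gave a log2 difference of 0.16 ± 0.06 SE (limma adjusted p = 0.0621), and the core acetyltransferase gene Dlat gave 0.10 ± 0.06 SE (limma adjusted p = 0.205). The per-array difference of Pdhx minus Pdha1 was -0.70 ± 0.17 in db/db and -0.02 ± 0.12 in db/+ (SD, n = 5 each), without overlap.

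Genes that supply and regulate PDH were read from a separate list of 12 genes, of which 3 rose and 3 fell. Across all genes tested, 17.1% were higher and 18.1% lower. Pdp1, a phosphatase that activates the complex, had ratios of -0.94, -0.98, -0.98, -1.10 and -0.64 in db/db and 0.11, 0.15, 0.08, 0.19 and 0.23 in db/+, a fall of 2.12-fold (limma adjusted p = 1.06e-05). Pdk1, a kinase that inactivates it, had ratios of 0.75, 0.75, 0.77, 0.88 and 0.78 in db/db and 0.12, -0.03, -0.01, -0.07 and -0.07 in db/+. It was 1.74-fold higher (limma adjusted p = 3.02e-06), and the arrays of the groups lay well apart. Pdk4, another such kinase, was 1.53-fold higher (limma adjusted p = 0.00058) and Pdk3 1.27-fold lower (limma adjusted p = 0.000785). Both of these calls were lost after quantile normalization of the ratios (adjusted p = 0.0668 for Pdk4 and 0.0886 for Pdk3). Mpc1, a subunit of the mitochondrial pyruvate carrier, fell 1.53-fold (log2 difference -0.61 ± 0.11 SE, limma adjusted p = 0.00231). Its partner Mpc2 gave -0.09 ± 0.07 SE (limma adjusted p = 0.403).

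Citrate synthase, which makes citrate at the start of the cycle, rose. Its gene Cs had log2 ratios of 0.74, 0.32, 0.38, 0.37 and 0.38 in db/db and -0.15, 0.08, -0.09, 0.00 and 0.04 in db/+. No db/db array reached down to the db/+ range, replicate 1 stood highest, and Cs was 1.38-fold higher (log2 difference 0.46 ± 0.08 SE, limma adjusted p = 0.0021). A second Cs probe also rose (0.28 ± 0.06 SE, limma adjusted p = 0.00583 over all probes). With the acinar covariate Cs missed the threshold at a similar difference (0.42, limma adjusted p = 0.055). Of the 17 tested genes of the cycle, Cs was the only called gene that rose, while 9 fell and 7 were not called. Their median log2 difference was -0.31. The 9 include the cytosolic aconitase gene Aco1, whereas the cytosolic Idh1 was counted under anaplerosis. Across all genes tested, 18.1% were lower and 17.1% higher. Quantile normalization left 2 of the cycle genes lower and 1 higher, and the acinar covariate left 5 lower and 0 higher.

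Aco1, the cytosolic aconitase, converts citrate to isocitrate and also acts as an iron regulatory protein. It had ratios of -0.70, -0.59, -0.38, -0.34 and -0.57 in db/db and -0.09, -0.17, -0.07, 0.00 and -0.09 in db/+. It fell 1.35-fold without overlap of the groups (-0.43 ± 0.07 SE, limma adjusted p = 0.00124).

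All 3 subunits of the NAD-dependent isocitrate dehydrogenase, which oxidises isocitrate in the cycle, were lower. Idh3a, its catalytic subunit, had ratios of -0.38, -0.37, -0.16, -0.30 and -0.36 in db/db and -0.12, -0.05, 0.00, 0.06 and 0.00 in db/+ (-0.29 ± 0.05 SE, limma adjusted p = 0.00185). Idh3g had -0.64, -0.27, -0.36, -0.51 and -0.46 in db/db and -0.17, -0.10, -0.16, -0.18 and -0.09 in db/+ (-0.31 ± 0.07 SE, limma adjusted p = 0.00492). The groups were apart for both. Idh3b fell most of the subunits but varied most, from -0.93 to -0.19 in db/db and from -0.23 to 0.31 in db/+, so the groups overlapped (-0.62 ± 0.17 SE, limma adjusted p = 0.0169). The 3 calls were lost after quantile normalization, and those of Idh3b and Idh3g also with the acinar covariate, where Idh3b gave -0.69 and Idh3g -0.19. The NADP-dependent enzymes gave less firm values. Idh2, the mitochondrial isozyme, fell 1.28-fold with overlapping groups (-0.36 ± 0.11 SE, limma adjusted p = 0.0348), a call that ended without replicate 1, 2 or 3 of db/db or replicate 2, 4 or 5 of db/+, and its second, dim probe was not called (limma adjusted p = 0.387). Idh1, the cytosolic isozyme, was near the detection limit at 0.058 units, where ratios move in rounding steps, and gave -0.05 ± 0.14 SE (limma adjusted p = 0.806).

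Next in the cycle is the oxoglutarate dehydrogenase complex. Dlst, its core succinyltransferase, had ratios of -0.34, -0.44, -0.24, -0.28 and -0.37 in db/db and -0.07, -0.06, -0.04, 0.00 and 0.02 in db/+, with no overlap (-0.30 ± 0.04 SE, limma adjusted p = 0.000523). Ogdh, the decarboxylase of the complex, ran from -0.58 to -0.26 in db/db and from -0.41 to 0.20 in db/+ and just missed the threshold (-0.35 ± 0.12 SE, limma adjusted p = 0.0535). It passed under 7 of 25 alternatives. Dld, the dihydrolipoamide dehydrogenase shared with PDH, gave -0.14 ± 0.05 SE (limma adjusted p = 0.0721).

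Succinyl-CoA ligase, which makes ATP or GTP from succinyl-CoA, showed the lowest adjusted p of the cycle. Sucla2, its ADP-specific beta subunit, had ratios of -0.58, -0.67, -0.60, -0.65 and -0.50 in db/db and 0.12, 0.12, -0.06, 0.06 and -0.07 in db/+. The db/db arrays lay close together and far below those of db/+, a fall of 1.55-fold (-0.63 ± 0.05 SE, limma adjusted p = 2.23e-05). The alpha subunit gene Suclg1, common to both forms of the enzyme, gave 0.01 ± 0.10 SE (limma adjusted p = 0.979). The per-array difference of Sucla2 minus Suclg1 was -0.69 ± 0.24 in db/db and -0.05 ± 0.19 in db/+ (SD, n = 5 each), without overlap.

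Succinate dehydrogenase, which is also complex II of the respiratory chain, was lower in its catalytic subunits. Sdha, the flavoprotein, had ratios of -0.22, -0.43, -0.27, -0.21 and -0.40 in db/db and 0.10, -0.02, 0.07, 0.04 and -0.03 in db/+, with the groups apart (-0.34 ± 0.05 SE, limma adjusted p = 0.000964). Sdhb, the iron-sulfur subunit, fell by 0.31 ± 0.10 SE on the log2 scale (limma adjusted p = 0.0371), with 1 db/db array at 0.05 inside the db/+ range, and lost its call without replicate 1, 2 or 5 of db/db or replicate 1, 3, 4 or 5 of db/+. The membrane anchors were not called. Sdhd gave -0.19 ± 0.08 SE (limma adjusted p = 0.0917). Sdhc gave -0.04 ± 0.17 SE on 3 values a group, and -0.15 ± 0.11 SE on a second probe with all 10 values (limma adjusted p = 0.333 over all probes). The first probe lay at 15.8 units, near the top of the scale, where the brightest Cy3 signals of the arrays were 16.4 to 20.4 units. The per-array difference of Sdha minus Sdhd overlapped between the groups, so a contrast between catalytic and anchor subunits was not shown.

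The cycle closes with fumarase and malate dehydrogenase. Fh1, fumarase, ranged from -0.80 to -0.09 in db/db and from -0.36 to 0.37 in db/+ (-0.46 ± 0.16 SE, limma adjusted p = 0.0513). It missed the threshold by little and passed under 10 of 25 alternatives, among them the Cy5 signal alone. Mdh2, the mitochondrial malate dehydrogenase, gave 0.02 ± 0.07 SE (limma adjusted p = 0.876).

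**Figure D2:**
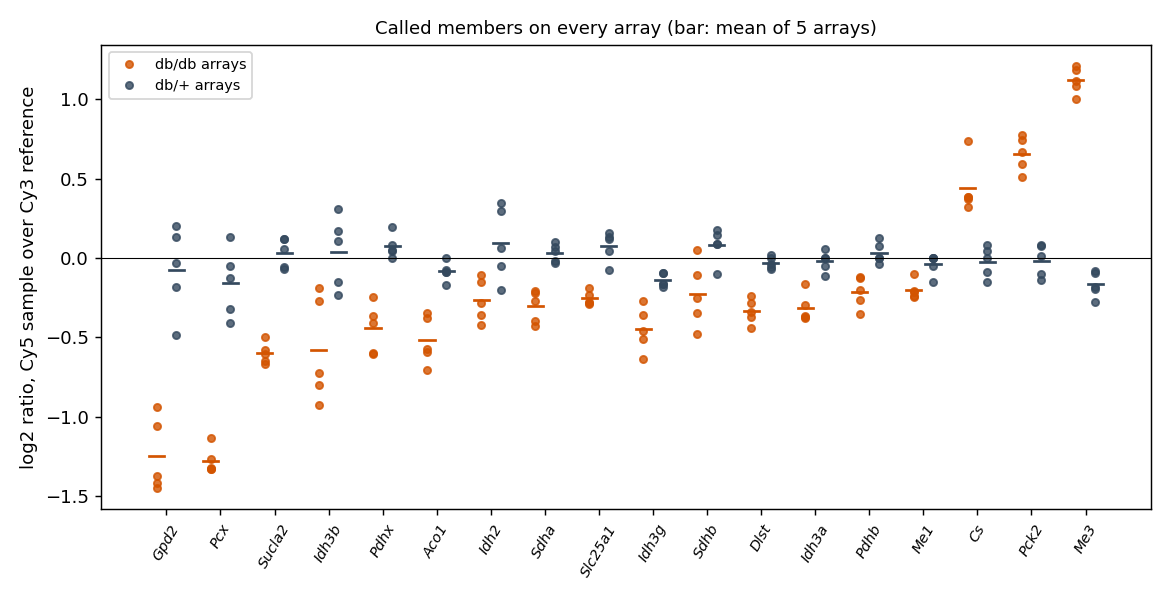
Log2 ratio to the reference on every array for the 18 called genes, ordered by difference, with db/db points to the left of db/+ points and a bar for each mean of 5 arrays. For 14 genes the points of the groups do not overlap, and for Idh3b, Idh2, Sdhb and Me1 they do.

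Anaplerosis and pyruvate cycling held the largest opposite changes. Pcx, pyruvate carboxylase, which makes oxaloacetate from pyruvate in the mitochondrion, had log2 ratios of -1.27, -1.33, -1.14, -1.33 and -1.32 in db/db and 0.13, -0.05, -0.13, -0.41 and -0.32 in db/+. The db/db arrays agreed closely and lay far below those of db/+. The fall was 2.18-fold (-1.12 ± 0.10 SE, limma adjusted p = 2.87e-05), and the mean Cy5 signal was 0.942 units in db/db and 2.04 units in db/+. The authors' deposited p-value, which compares both channels of an array, was under 0.01 for Pcx on 5 db/db arrays and 0 db/+ arrays. The per-array difference of Pcx minus Pdha1, a subunit gene of the competing PDH route, was -1.53 ± 0.12 in db/db and -0.25 ± 0.26 in db/+ (SD, n = 5 each). Pdha1 does not stand for the whole PDH complex, of which Pdhx (-0.52) and Pdhb (-0.25) fell.

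The malic enzymes, which turn malate back into pyruvate, diverged by isozyme. Me3, the mitochondrial NADP-dependent form, had ratios of 1.00, 1.08, 1.19, 1.12 and 1.21 in db/db and -0.08, -0.19, -0.18, -0.09 and -0.28 in db/+. It was 2.44-fold higher (1.29 ± 0.05 SE, limma adjusted p = 6.46e-07), the lowest adjusted p of the 37 genes, with mean Cy5 signals of 0.396 units in db/db and 0.15 units in db/+. Me1, the cytosolic NADP-dependent form, was lower by a small amount with overlapping groups (-0.16 ± 0.04 SE, limma adjusted p = 0.016). Its call was lost after loess and after quantile normalization, in the Cy5 signal alone and with the acinar covariate (highest adjusted p = 0.667). Me2, the mitochondrial NAD-dependent form, gave -0.15 ± 0.09 SE (limma adjusted p = 0.263). Within arrays, Me3 minus Me1 was 1.32 ± 0.11 in db/db and -0.13 ± 0.08 in db/+, and Me3 minus Me2 was 1.26 ± 0.17 in db/db and -0.18 ± 0.12 in db/+ (SD, n = 5 each), without overlap in either case.

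Pck2, the mitochondrial phosphoenolpyruvate carboxykinase, which makes phosphoenolpyruvate from oxaloacetate, had ratios of 0.51, 0.59, 0.74, 0.77 and 0.67 in db/db and 0.08, -0.10, 0.07, 0.01 and -0.14 in db/+. It was 1.60-fold higher with the groups apart (0.67 ± 0.07 SE, limma adjusted p = 5.13e-05), with mean Cy5 signals of 9.50 units in db/db and 5.86 units in db/+. The cytosolic isozyme gene Pck1, near the dim end at 0.079 units, gave 0.12 ± 0.05 SE (limma adjusted p = 0.0938). Glud1, glutamate dehydrogenase, which links glutamate to oxoglutarate, gave -0.28 ± 0.12 SE (limma adjusted p = 0.105). Of the 7 genes of this step, 2 rose, 2 fell and 3 were not called, beside 17.1% higher and 18.1% lower among all genes tested.

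Among 17 tested genes of a related list on other routes into the cycle, 2 rose and 6 fell. The shares among all genes tested were 17.1% higher and 18.1% lower. Quantile normalization, the acinar covariate and a threshold of 0.01 each left 2 genes of this list lower. A minimum of 1.5-fold left 0 lower. Gpt2, the mitochondrial alanine aminotransferase, had ratios of 0.77, 0.80, 1.12, 1.03 and 0.87 in db/db and 0.02, -0.28, 0.19, -0.10 and -0.14 in db/+, a rise of 1.97-fold (limma adjusted p = 6.69e-05). Oat, ornithine aminotransferase, was 2.04-fold higher (limma adjusted p = 1.71e-05). Mmut, methylmalonyl-CoA mutase, which feeds succinyl-CoA, was 1.43-fold lower (limma adjusted p = 5.86e-05). Aldh5a1, succinate semialdehyde dehydrogenase, which yields succinate from the GABA shunt, was 1.47-fold lower (limma adjusted p = 0.00723). It missed the threshold with quantile-normalized ratios (limma adjusted p = 0.24) and with the acinar covariate (limma adjusted p = 0.0587). Gpt2 and Oat kept their calls under all alternatives run.

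The glycerol phosphate and malate-aspartate shuttles carry reducing equivalents of cytosolic NADH to the mitochondrion. Gpd2, the FAD-linked dehydrogenase of the inner membrane that is abundant in beta cells, had log2 ratios of -1.37, -1.45, -0.94, -1.06 and -1.42 in db/db and -0.49, -0.18, -0.03, 0.13 and 0.20 in db/+. Both groups were widely spread yet lay apart, and the fall was 2.26-fold (-1.17 ± 0.15 SE, limma adjusted p = 0.00027). Its mean Cy5 signal was 0.196 units in db/db and 0.446 units in db/+. Gpd1, the cytosolic enzyme of the same shuttle, moved the other way, with ratios of 0.26, 0.34, 0.36, 0.34 and 0.28 in db/db and -0.11, -0.17, -0.03, -0.15 and -0.14 in db/+ (1.35-fold higher, limma adjusted p = 2.6e-05). Gpd2 minus Gpd1 was -1.56 ± 0.21 in db/db and 0.05 ± 0.28 in db/+ (SD, n = 5 each).

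No gene of the malate-aspartate shuttle passed the threshold. Mdh1, the cytosolic malate dehydrogenase, gave -0.25 ± 0.13 SE (limma adjusted p = 0.167). Got1, the cytosolic aspartate aminotransferase, gave -0.01 ± 0.05 SE (limma adjusted p = 0.896). Got2, its mitochondrial counterpart, gave -0.34 ± 0.12 SE at an adjusted p of 0.0502 by limma, on a probe of 0.057 units with coarse ratios, and a still dimmer probe gave 0.06. It passed under 6 of 24 alternatives, among them the Cy5 signal alone. Slc25a11, the malate-oxoglutarate carrier, gave 0.11 ± 0.07 SE (limma adjusted p = 0.293). The aspartate-glutamate carriers Slc25a12 and Slc25a13 gave 0.22 ± 0.09 SE and -0.07 ± 0.06 SE (limma adjusted p = 0.0976 and 0.426), and their per-array difference overlapped between the groups.

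Among the export carriers, Slc25a1, which moves citrate to the cytosol, had ratios of -0.28, -0.28, -0.23, -0.19 and -0.29 in db/db and -0.08, 0.12, 0.04, 0.13 and 0.16 in db/+. The db/db values were tight and below all of db/+ (1.26-fold lower, -0.33 ± 0.05 SE, limma adjusted p = 0.000711), but the Cy5 signal taken alone was not called (limma adjusted p = 0.154). Slc25a10, the dicarboxylate carrier, gave 0.02 ± 0.06 SE (limma adjusted p = 0.834). Acly, which cleaves the exported citrate, gave -0.15 ± 0.13 SE at 15.2 units (limma adjusted p = 0.411), and the transhydrogenase gene Nnt gave -0.10 ± 0.09 SE (limma adjusted p = 0.416). Ldhb, a lactate dehydrogenase subunit, was 1.34-fold lower by ratio (limma adjusted p = 0.0101), yet its mean Cy5 signal was 0.08 units in db/db and 0.082 units in db/+, and the Cy5 signal taken alone was not called. Ldhb and Gpd1 were the called genes of a related list of 16. Among 11 tested genes of other mitochondrial carriers 1 rose and 1 fell. For both lists, the shares among all genes tested were 17.1% higher and 18.1% lower. The glutamate carrier gene Slc25a18 was 1.60-fold higher (limma adjusted p = 0.0103), on a dim probe of 0.049 units with overlapping groups. Quantile normalization, the Cy5 signal alone, the acinar covariate and the permutation test each ended this call (highest adjusted p = 0.235). The NAD carrier gene Slc25a51 was 1.27-fold lower (limma adjusted p = 0.000468), a call not seen on its dimmest probe (0.03, adjusted p = 0.819).

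**Figure D3:**
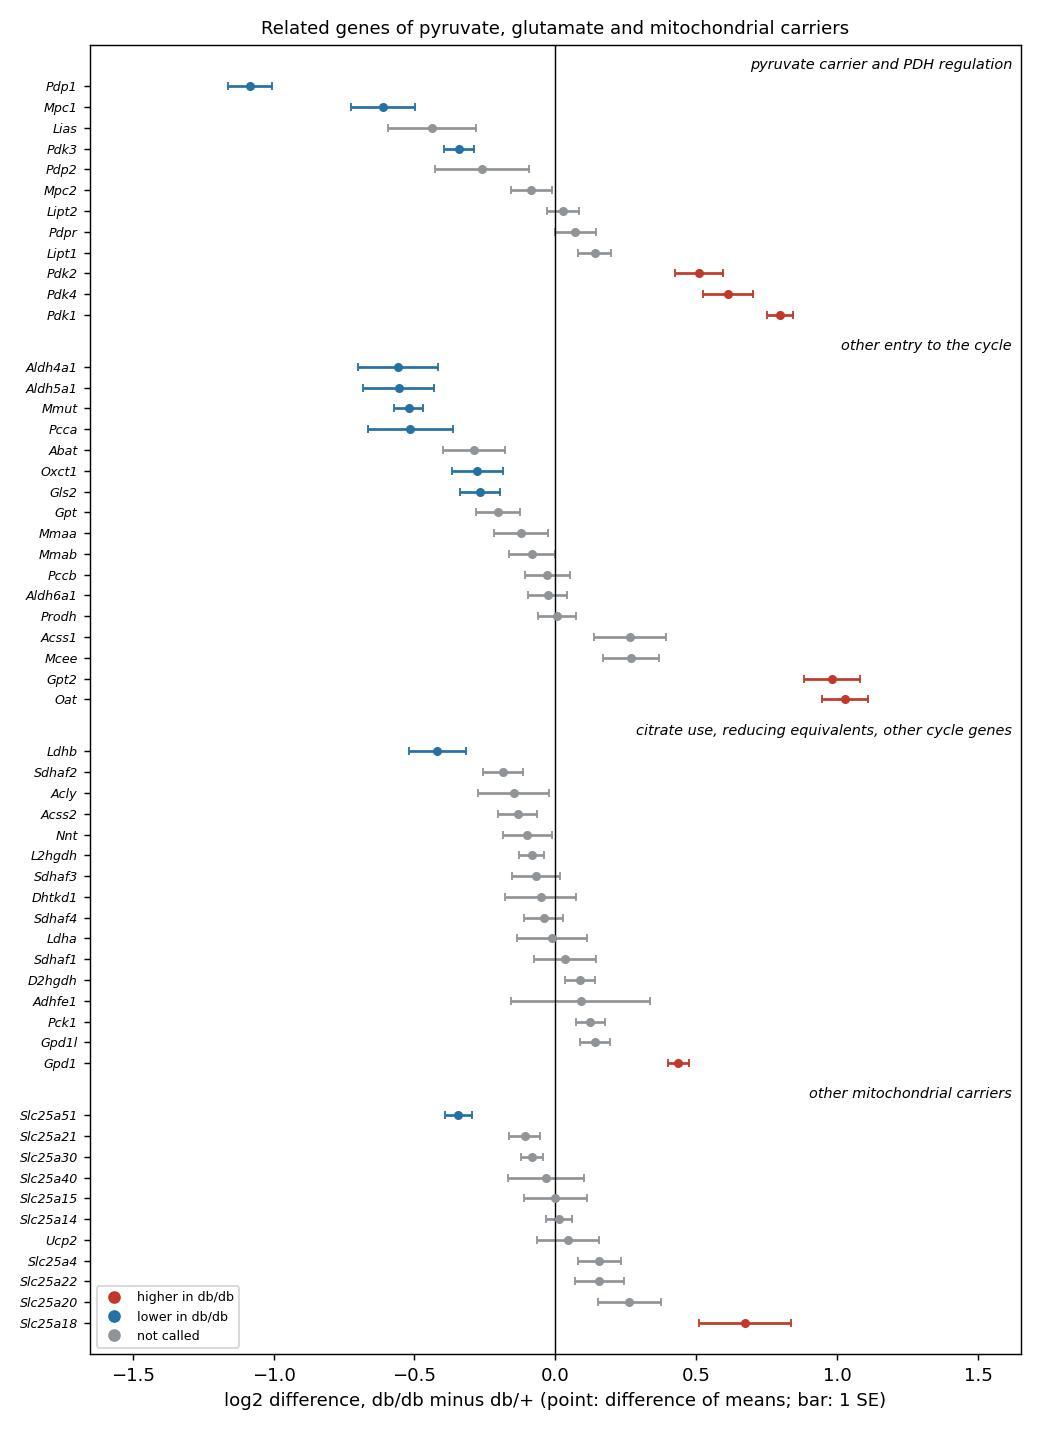
Log2 difference between db/db and db/+ islets for the tested genes of the 4 related lists, with points for the difference of the group means (5 arrays each, but 4 db/+ arrays for Adhfe1) and bars for 1 standard error. Pdp1 at -1.08 is the lowest value, and Oat at 1.03 and Gpt2 at 0.98 are the highest.

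The middle of the set differed from array to array. Over the 36 genes with 10 values, the median log2 ratio was -0.24, -0.26, -0.03, -0.07 and -0.19 on the db/db arrays and -0.03, -0.01, 0.04, 0.07 and 0.03 on the db/+ arrays, while the median of all genes was 0 on every array. Replicates 3 and 4 of db/db were the nearest to db/+. The same arrays gave the least negative values of Idh3b, Fh1, Sdhb, Gpd2 and Mpc1, whereas Pcx, Sucla2 and Me3 hardly differed among the db/db arrays. All 5 db/db arrays lay below all db/+ arrays for 11 of the 36 genes and above them for 3, against 13.2% and 12.9% of all genes with 10 values. The calls of Pdhx, Sucla2, Sdha, Pcx, Me3, Pck2 and Gpd2 held under the 23 alternatives other than the thresholds.

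**Figure D4:**
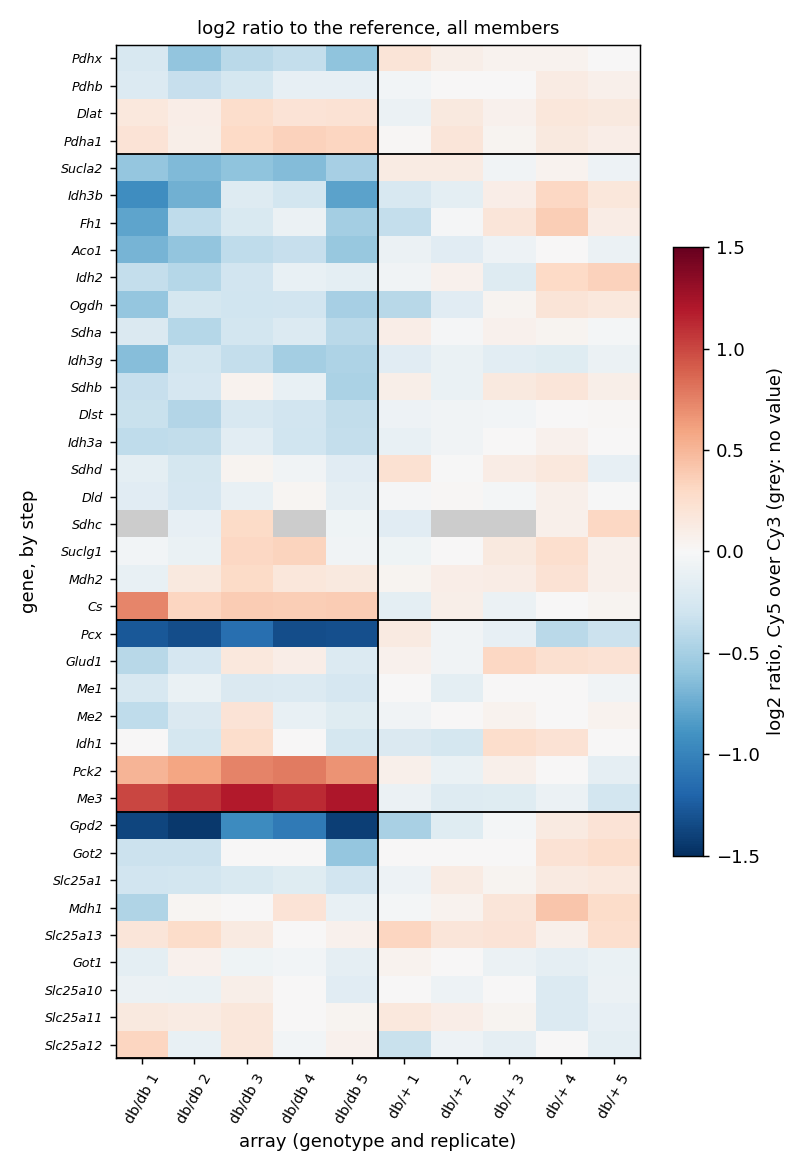
Log2 ratio to the reference for the 37 genes (rows, by step and ordered by difference within it) on 10 arrays (columns), blue below and red above the reference, grey where no value was given. Pcx and Gpd2 are blue and Me3 and Pck2 red on all 5 db/db arrays, and db/db replicates 3 and 4 are paler than the others for many genes of the cycle.

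The promoters of the set were searched for 4 short motifs on both strands, in windows from 250 bases before to 50 after each gene start, taken from RefSeq with build GRCm38.p6. An entry was matched for 34 of the 37 genes, with 43 windows. The motifs were the core of amino acid response elements bound by ATF4 (TGATGNAA), the palindromic site of nuclear respiratory factor 1, that of oestrogen-related receptors (TCAAGGTCA) and the E-box (CACGTG). Of 32851 windows of all genes, 3.97%, 6.23%, 0.423% and 7.15% held them, in that order. Of the 43 windows of the set, 3, 5, 1 and 6 did, and no excess was tested. In the set the first was found in Me3, Pck2 and Got1, of which Me3 and Pck2 rose and Got1 was not called. The second was found in Sucla2 and Sdha, which fell, and in Dld, Sdhd and Slc25a10, which were not called. The third was found in Sdhd. The E-box was found in Pcx and Slc25a1, which fell, and in Ogdh and Slc25a13, which were not called, and no motif was found in either of the 2 Gpd2 windows. A match describes the sequence and does not show a bound site. The windows of 5 called genes with a match are printed 5′ to 3′ with the matches in capitals (for Me3 and Pck2 the match is on the opposite strand and reads TTNCATCA), for Me3 (chr7:89632568-89632867, plus strand, match 34 bases before the start), Pck2 (chr14:55540016-55540315, plus strand, 103 bases before), Pcx in 1 of its 2 windows (chr19:4510222-4510521, plus strand, 248 bases before), Sucla2 (chr14:73552536-73552835, plus strand, 17 bases before) and Sdha (chr13:74350191-74350490, minus strand, with 3 matches that begin 98, 55 and 10 bases before the start).
Me3: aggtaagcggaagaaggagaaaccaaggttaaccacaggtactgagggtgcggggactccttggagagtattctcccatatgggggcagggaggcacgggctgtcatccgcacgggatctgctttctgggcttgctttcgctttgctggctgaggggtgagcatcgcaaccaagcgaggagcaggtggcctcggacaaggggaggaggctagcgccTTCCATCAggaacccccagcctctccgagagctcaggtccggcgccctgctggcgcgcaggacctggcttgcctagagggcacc
Pck2: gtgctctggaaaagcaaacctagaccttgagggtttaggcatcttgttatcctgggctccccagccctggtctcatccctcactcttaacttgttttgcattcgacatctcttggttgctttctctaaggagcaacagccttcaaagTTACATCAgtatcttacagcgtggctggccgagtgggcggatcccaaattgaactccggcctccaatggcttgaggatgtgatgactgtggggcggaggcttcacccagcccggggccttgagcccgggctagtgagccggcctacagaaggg
Pcx: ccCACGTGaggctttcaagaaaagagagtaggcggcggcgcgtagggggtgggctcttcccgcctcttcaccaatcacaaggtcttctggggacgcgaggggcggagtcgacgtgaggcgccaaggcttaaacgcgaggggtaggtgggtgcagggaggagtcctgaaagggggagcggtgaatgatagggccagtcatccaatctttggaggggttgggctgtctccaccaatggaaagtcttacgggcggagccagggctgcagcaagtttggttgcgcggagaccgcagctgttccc
Sucla2: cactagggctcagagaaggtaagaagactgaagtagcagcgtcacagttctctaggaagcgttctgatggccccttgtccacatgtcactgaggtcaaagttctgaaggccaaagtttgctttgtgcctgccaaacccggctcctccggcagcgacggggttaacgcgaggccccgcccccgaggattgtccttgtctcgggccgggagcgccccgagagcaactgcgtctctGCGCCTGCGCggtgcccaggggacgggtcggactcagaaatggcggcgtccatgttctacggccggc
Sdha: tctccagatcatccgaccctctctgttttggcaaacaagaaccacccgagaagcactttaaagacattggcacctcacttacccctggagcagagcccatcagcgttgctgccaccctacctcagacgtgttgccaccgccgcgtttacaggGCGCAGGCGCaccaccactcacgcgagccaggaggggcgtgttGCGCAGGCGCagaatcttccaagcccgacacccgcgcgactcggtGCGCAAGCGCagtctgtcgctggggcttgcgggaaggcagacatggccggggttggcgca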

How the data were processed

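Islet RNA of 5 db/db and 5 db/+ mice was measured on 10 arrays of 2 colours, with the sample in Cy5 and the reference in Cy3, per the labels. Per the labels' protocols, RNA was extracted with Trizol, and 100 ng was amplified in 2 rounds. The submitters' processing notes name Agilent Feature Extraction 8.5.1.1. The deposited intensities, per the file headers, are in arbitrary units mostly rounded to 0.01. The deposited log10 ratios were checked to equal the log10 of Cy5 over Cy3. The authors' p-value per probe and array compares the channels. The sources used here do not give its computation, the treatment of background and dyes or the reason for blank spots.

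The log10 ratios were turned into log2 with no pseudocount or further scaling. Probes needed at least 3 values in each group, and a gene with several probes was read from the brightest in Cy3, named through RefSeq symbols. The comparison used lmFit and eBayes of limma 3.58.1 under R 4.3.3 (2-sided, without covariates, Benjamini-Hochberg adjustment over 19557 genes, or over 23138 probes where second probes and the Cy3 channel are given). SE is the moderated standard error, and fold changes are antilogs of the log2 difference. The fit was tested on simulated data. The genes, steps and lists were chosen with earlier results of these data known. All genes of the set were described. Of the related lists, up to 4 called genes of smallest adjusted p were named, together with Mpc1, Mpc2, Pck1, Gpd1, Nnt and Acly. Some genes of the related lists are not reported here and were left out of their counts. Cell type markers were counted by list. Alternatives covered normalization between and within arrays, the Cy5 signal alone, dim and blank probes, several probes of a gene, the prior, array weights, a block for the replicate number, an acinar covariate, a permutation test, thresholds and each array left out. Figures used Python 3.11.15 and matplotlib 3.10.9.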

Additional observations from a re-analysis of the deposited data

Results flagged for a closer look

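In 2 of 72 groups of 5 values 1 array stood apart from the other 4 by Dixon's ratio, where chance gives about 1 group in 20. For Cs, db/db replicate 1 had a log2 ratio of 0.74 and the other db/db arrays 0.32 to 0.38. On the second Cs probe the same array was the lowest of db/db, at 0.12 against 0.22 to 0.32. For Me1, db/db replicate 2 had -0.10 and the other db/db arrays -0.25 to -0.21.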

How the results depend on the processing

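Of 18 called genes, 7 kept direction and call under 23 alternatives, and none changed sign under any of 25. Quantile normalization of the ratios, which gives db/db and db/+ arrays the same spread by construction, left 6 genes of the set lower and 3 higher, and 1508 lower and 1677 higher genes in all. After loess within arrays 5 genes of the set were higher. The acinar covariate left 2202 lower and 2168 higher genes in all. A threshold of 0.01 left 2260 lower genes, and a minimum of 1.5-fold left 1132 lower and 1466 higher genes in all and 4 lower genes of the set. Other counts of the set and of all genes stayed within 1.5 times of the reported ones.

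Signs changed only for values that did not pass the threshold under that alternative. After quantile normalization these were Dlat (-0.0095), Suclg1 (-0.0407), Mdh2 (-0.0806), Got1 (0.0559) and Pck1 (-0.0251). With the acinar covariate they were Suclg1 (-0.1321), Mdh2 (-0.0061), Got1 (0.0766), Slc25a10 (-0.0022) and Slc25a13 (0.0656). Loess turned Got1 (0.0538), and the Cy5 signal alone turned Slc25a10 (-0.0451). On the dimmest probe Got2 (0.0644) and Slc25a51 (0.0349) turned. Leaving out each array moved Suclg1 from -0.0516 to 0.0565, Sdhc from -0.1641 to 0.0811, Mdh2 from -0.0209 to 0.079, Idh1 from -0.1315 to 0.0132, Got1 from -0.0446 to 0.0138 and Slc25a10 from -0.0151 to 0.048. The causes were not tested.

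With the replicate number as a block, 18 genes of the set were lower and 3 higher, and in all 3528 lower and 3250 higher. Mdh1 passed under the block (adjusted p = 0.0449). Same-numbered arrays deviated together by correlations of 0.0366 to 0.221, and only numbers 3 and 4 matched their own best. These values do not decide whether the numbers pair the arrays. The reported fit treats the arrays as unpaired. Probes near 0.05 units have ratios in coarse steps, and probes above 15 units lie near the top of the scale, which limits Idh1, Got2, Sdhc and Acly.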

Other observations

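On the db/+ arrays both channels held RNA of the same genotype. For 5 of the 36 genes with 10 values all 5 db/+ ratios lay on the same side of 0, above it for Pdha1, Mdh2 and Slc25a13 and below it for Idh3g and Me3. Among all 18627 genes with 10 values, 3.08% lay above and 3.15% below on all 5 db/+ arrays. The differences between the groups were taken from these db/+ means and not from 0.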
